A study of Homo sapiens with 34 samples.

Results

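The natriuretic peptide system was followed through 7 genes: the peptide precursors NPPA, NPPB and NPPC, the receptors NPR1, NPR2 and NPR3, and the protease CORIN. They were taken by name from 23189 gene symbols, each through its RefSeq transcript row with the largest total, and all 7 were found in the table. NPPA encodes atrial natriuretic peptide (ANP), NPPB encodes brain natriuretic peptide (BNP) and NPPC encodes C-type natriuretic peptide (CNP). ANP and BNP are made by heart muscle cells, and NPPA is a classical marker of embryonic atrial and trabecular myocardium that is activated by NKX2-5, GATA4 and TBX5. CORIN is a membrane protease of cardiomyocytes that cuts pro-ANP into the active hormone. NPR1 is the guanylyl cyclase receptor for ANP and BNP, NPR2 is that for CNP, and NPR3 lacks a cyclase domain and clears all 3 peptides.

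RNA was sequenced from H1 cells, a human embryonic stem cell (ESC) line, at days 0, 2, 6 and 10 of differentiation toward cardiomyocytes (CMs), to ask what loss of NKX2-5, ZEB2 or ZNF503 does to this process. The shRNA lines carried a lentiviral shRNA against NKX2-5, a cardiac homeobox factor, ZEB2, a zinc finger E-box factor, or ZNF503, a zinc finger protein, and for each gene a single shRNA was used, that with the best knockdown. WT cells were H1 cells infected with an shRNA against GFP or with an empty vector, so that controls were virus-treated too, and the labels do not tell which vector a WT library had. Cells of every line were treated with the GSK3β inhibitor CHIR99021 for the first 24 hours and with the WNT inhibitor IWP2 from day 2 to day 5, and received insulin at day 7. WT, NKX2-5 shRNA, ZEB2 shRNA and ZNF503 shRNA cells were compared at days 0, 2 and 6, and WT, NKX2-5 shRNA and ZEB2 shRNA cells at day 10, which gave 15 groups of 2 libraries.

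The 30 libraries held 9189943 to 90814577 counts over the genes, with a median of 32191176. A count of 3, taken here as the limit of detection in a library, equalled 0.033 to 0.326 CPM (counts scaled to a common library size). At day 10, replicates 1 and 2 of the WT and of the ZEB2 shRNA group (4 columns) were left out because their values are out of step with the gene rows, and replicates 3 and 4 represent these groups. The NKX2-5 shRNA libraries of day 10 are replicates 1 and 2, and the labels do not tell whether replicate numbers mark a batch. A batch could not be told apart from line in comparisons with NKX2-5 shRNA cells at day 10. Nor could it be told apart from day in changes of WT and ZEB2 shRNA cells to day 10. The targeted gene was at 1.30% of its WT level in NKX2-5 shRNA cells at day 6 and at 1.38% at day 10, and ZNF503 was at 7.00% in ZNF503 shRNA cells at day 6. ZNF503 was about as low in NKX2-5 shRNA cells at day 6 (0.745 CPM on average, against 0.632 in ZNF503 shRNA and 9.02 in WT cells), so its own shRNA and the course of the cells cannot be told apart in that value. ZEB2 was at 65.8% in ZEB2 shRNA cells at day 2, at 58.6% at day 6 and at 49.2% at day 10. At day 2 ZEB2 averaged 4.43 CPM in NKX2-5 shRNA, 11.8 in ZEB2 shRNA, 12.0 in ZNF503 shRNA and 17.95 in WT cells. At day 6 it was lower in NKX2-5 and ZNF503 shRNA cells (20.5 and 11.9 CPM on average) than in ZEB2 shRNA cells (55.9, against 95.4 in WT). By real-time PCR the paper reports a stronger reduction of ZEB2, which these RNA levels do not show. At day 2 ZNF503 was at 89.6% of WT on at most 34 counts, and NKX2-5 had at most 6 counts in WT cells, so that the knockdown of either could not be read at days 0 and 2.

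Places are given as gene spans of the GENCODE annotation, which can be wider than the RefSeq transcript that was counted (in brackets). NPPA (NM_006172) lies on chromosome 1 of GRCh37 at chr1:11905766-11908402 on the minus strand and has 3 exons. NPPB (NM_002521) lies beside it at chr1:11917521-11919002, on the same strand with 3 exons, and 9118 bases separate the pair. NPPC (NM_024409) lies at chr2:232786519-232791106 on the minus strand, NPR1 (NM_000906) at chr1:153651164-153666468 on the plus strand, and NPR2 (NM_003995) at chr9:35791000-35809729 on the plus strand. NPR3 (NM_000908) covers chr5:32689176-32791830 on the plus strand and CORIN (NM_006587) covers chr4:47596016-47840123 on the minus strand. Of the 7, NPR3 alone had more than 1 transcript row, and its 3 rows share reads. On the opposite strand the gene span of CLCN6 overlaps that of NPPA by 2371 bases, and the overlap of the counted transcripts can be smaller. Whether the counting kept the strands apart is not given in the sources used here. NPPA was at 0 counts in all 8 libraries of day 0, while the antisense transcript NPPA-AS1 had counts in every library.

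The RefSeq promoter table (GRCh38.p14) matched 6 of the 7 genes, NPPB being without an entry. The 250 bases before the transcription start of NPPA (minus strand, chr1:11847784-11848033) and of CORIN (minus strand, chr4:47838068-47838317) are shown because these genes were the farthest below WT in NKX2-5 and ZNF503 shRNA cells at day 6 and in NKX2-5 shRNA cells at day 10. Capitals mark matches to 6 motifs searched on both strands. Binding cores of GATA factors were searched as AGATAA and, in another form, as TGATAA. The core bound by NKX2-5 was searched as AAGTG, and a site of T-box factors as GGTGTGA. The box of ZEB-type factors was searched as CACCTG and the promoter box of that name as TATAAA. Capitals that read as the reverse complement are matches on the opposite strand.
NPPA promoter: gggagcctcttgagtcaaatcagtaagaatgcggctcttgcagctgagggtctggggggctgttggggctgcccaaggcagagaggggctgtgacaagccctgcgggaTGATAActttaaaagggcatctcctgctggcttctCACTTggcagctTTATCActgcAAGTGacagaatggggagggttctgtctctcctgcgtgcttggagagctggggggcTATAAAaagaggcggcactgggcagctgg
CORIN promoter: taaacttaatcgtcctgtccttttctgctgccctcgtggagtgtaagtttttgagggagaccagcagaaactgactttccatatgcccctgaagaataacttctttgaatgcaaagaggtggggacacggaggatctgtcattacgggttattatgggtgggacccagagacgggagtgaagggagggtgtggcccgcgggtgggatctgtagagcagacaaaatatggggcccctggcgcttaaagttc
In the NPPA window TGATAA stood 142 to 137 bases before the start and again, on the opposite strand, at 95 to 90 bases. AAGTG stood at 85 to 81 bases and, on the opposite strand, at 107 to 103 bases, and TATAAA at 29 to 24 bases. The CORIN window and that of NPR1 held none of the 6 motifs. Those of NPPC, NPR2 and NPR3 held AAGTG, that of NPPC also TATAAA, and 1 of the 2 NPR3 windows also GGTGTGA. Over 35114 promoter windows of this length AAGTG was found in 37.6%, CACCTG in 17.5%, TATAAA in 10.7%, AGATAA in 9.17%, TGATAA in 6.66% and GGTGTGA in 2.76%. A match describes letters in the window and no binding was measured.

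In WT cells NPPA, NPPB and CORIN were activated in different steps. NPPA was at 0 CPM in both libraries of days 0 and 2, at 0.608 and 1.18 CPM at day 6, and at 7.52 and 3.70 CPM at day 10. With the limit of 3 counts per library as the base, NPPA was at least 11.3-fold higher at day 6 and at least 71.2-fold higher at day 10 than at day 0, and it rose from day 6 to day 10 by 2.65 ± 0.52 on the log2 scale (SE, adjusted p = 0.00281). NPPB was already present in ESCs, at 1.09 and 0.729 CPM, fell to 0 and 0.247 CPM at day 2 (log2 change -3.30 ± 0.97, adjusted p = 0.0194), and stood at 29.2 and 23.8 CPM at day 6 and at 53.4 and 24.2 CPM at day 10. Its rise from day 0 to day 6 was 4.88 ± 0.46 on the log2 scale (adjusted p = 8.57e-06), and between days 6 and 10 the libraries overlapped (adjusted p = 0.191). The day 2 fall rests on few counts: it ran from -7.70 to -1.83 without 1 library and was lost without WT day 0 replicate 1 (adjusted p = 0.0659) or WT day 2 replicate 1 (0.208). CORIN was at 0.159 and 0.130 CPM at day 0 and at 0.129 and 0 CPM at day 2. It reached 9.38 and 2.86 CPM at day 6 and 166.8 and 77.0 CPM at day 10, a rise from day 6 of 4.40 ± 0.52 on the log2 scale or 21.1-fold (adjusted p = 6.75e-05). Thus the main rise of NPPB came before day 6, and that of CORIN and NPPA continued to day 10. NPPC stayed low, with its highest library at 0.872 CPM (WT, day 10, replicate 4) and the other library of that group at 0, and none of its WT comparisons passed the test.

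The receptors followed other courses in WT cells. NPR1 rose from 6.60 and 7.63 CPM at day 0 to 25.65 and 24.95 CPM at day 2 (log2 change 1.86 ± 0.30, adjusted p = 0.000691). It was at 2.65 and 4.61 CPM at day 6, below day 0 (-0.92 ± 0.31, adjusted p = 0.0241), and at 11.1 and 5.77 CPM at day 10. NPR2 rose from 3.92 and 3.93 CPM at day 0 to 8.94 and 10.4 CPM at day 2 and was at 19.9 and 13.4 CPM at day 10, 2.14 ± 0.27 above day 0 on the log2 scale (adjusted p = 4.88e-05). NPR3, the clearance receptor, was at or below 0.159 CPM at day 0, at 2.65 and 4.15 CPM at day 6 and at 0.830 and 0.654 CPM at day 10. NPR3 rose by 4.98 ± 0.86 to day 6 (adjusted p = 0.000604) and fell by 2.15 from day 6 to day 10 (SE 0.75, adjusted p = 0.0322). Several of these calls rest on single libraries. The NPR1 call at day 6 was lost without WT day 0 replicate 2 (-0.83, adjusted p = 0.104) or WT day 6 replicate 1 (-0.61, 0.153). The fall of NPR3 from day 6 to day 10 was lost without WT day 6 replicate 2 (adjusted p = 0.167), WT day 10 replicate 3 (0.0748) or WT day 10 replicate 4 (0.0697), and the rise of NPR1 over that interval without WT day 6 replicate 1 (0.053) or WT day 10 replicate 3 (0.124). Without WT day 10 replicate 3, 2 rather than 4 of the 7 genes passed.

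These counts are read against all genes. Of the 7 genes, all of which were tested in the WT series, 3 passed at day 2, 6 at day 6 and 5 at day 10 against day 0, while 44.1%, 60.9% and 73.8% of all genes tested passed at the same days. Between days 6 and 10 the figure was 4 of 7 against 57.5% of all genes. The share among the 7 was therefore near that of all genes, and it is the size of the changes that differs between members. Among NKX2-5 shRNA cells 4 of 6 tested members passed from day 0 to day 6 and 3 of 6 from day 6 to day 10 (all genes 55.5% and 49.1%). In ZEB2 shRNA cells 6 of 7 and 4 of 7 passed over the same intervals (63.3% of all genes in each), and in ZNF503 shRNA cells 5 of 6 passed from day 0 to day 6 (68.4%). NPPB rose from day 0 to day 6 in each line, by 5.53 ± 0.43 in NKX2-5 shRNA, 3.32 ± 0.29 in ZEB2 shRNA and 11.42 ± 0.40 in ZNF503 shRNA cells on the log2 scale (adjusted p = 3.44e-05, 1.79e-07 and 1.7e-11). The last of these starts from libraries with 4 and 0 counts, so its size is uncertain.

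**Figure D1:**
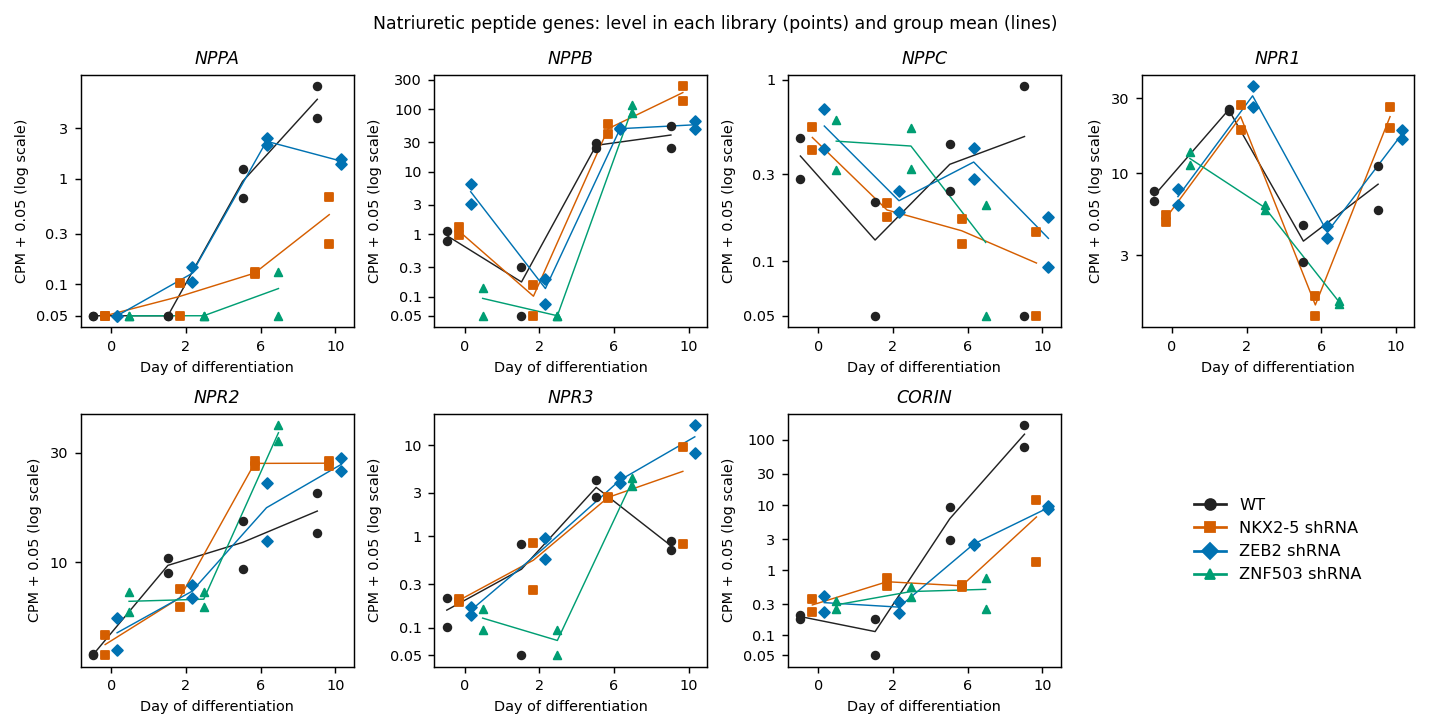
Level of each of the 7 genes in every library (points, CPM + 0.05 on a log axis) and group means (lines) by day of differentiation (evenly spaced on the x axis), for WT (black circles), NKX2-5 shRNA (orange squares), ZEB2 shRNA (blue diamonds) and ZNF503 shRNA cells (green triangles), 2 libraries per group. At day 10 CORIN is at 166.8 and 77.0 CPM in WT and at or below 11.7 CPM elsewhere, and NPPB is highest in NKX2-5 shRNA cells.

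At day 6 the 2 heart peptides moved in opposite directions in NKX2-5 shRNA and in ZNF503 shRNA cells. With the NKX2-5 shRNA NPPA was at 0.0737 and 0.0801 CPM, against 0.608 and 1.18 CPM in WT, and fell by 3.51 on the log2 scale (SE 0.66, 11.4-fold, adjusted p = 0.0008). NPPB was at 40.1 and 57.9 CPM, above both WT libraries, and rose by 0.88 ± 0.19 (1.85-fold, adjusted p = 0.0021; 0.59 without NKX2-5 shRNA day 6 replicate 2). CORIN was at 0.553 and 0.501 CPM and fell by 3.53 (SE 0.57, 11.5-fold, adjusted p = 0.000274). Among the receptors NPR1 was lower, at 1.18 and 1.60 CPM (-1.39 ± 0.33, adjusted p = 0.00394), and NPR2 was higher, at 26.3 and 27.5 CPM (1.12 ± 0.26, adjusted p = 0.003). NPR3, at 2.62 and 2.64 CPM, did not pass (adjusted p = 0.271). In all, 5 of the 6 members tested passed, 2 higher and 3 lower, and 49.1% of all genes tested passed in this comparison.

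ZNF503 shRNA cells gave the same 5 calls in the same directions at day 6, against the same WT libraries. NPPA was at 0 and 0.0812 CPM, which is 0 and 2 counts, and the ratio of WT to ZNF503 shRNA was 21.5 with a 95% counting interval of 5.71 to 182 (adjusted p = 0.000968). NPPB was at 116 and 85.9 CPM and rose by 1.92 ± 0.19 on the log2 scale (3.79-fold, adjusted p = 6.08e-06). CORIN was at 0.716 and 0.203 CPM and fell by 3.78 (SE 0.63, 13.7-fold, adjusted p = 0.000321). NPR1, at 1.48 and 1.42 CPM, fell by 1.35 (SE 0.34, adjusted p = 0.00563), and NPR2, at 39.4 and 33.7 CPM, rose by 1.56 ± 0.26 (adjusted p = 0.000306). NPR3 did not pass (4.35 and 3.53 CPM, adjusted p = 0.62). Of all genes tested 55.7% passed. In both lines the NPR1 call was lost without WT day 6 replicate 2 (adjusted p = 0.068 in NKX2-5 shRNA and 0.0807 in ZNF503 shRNA cells).

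In ZEB2 shRNA cells at day 6 only NPPB passed, at 50.2 and 47.8 CPM (0.89 ± 0.19 on the log2 scale, 1.86-fold, adjusted p = 0.00948), with 11% of all genes passing. NPPA was at 2.06 and 2.37 CPM, above both WT libraries, with an adjusted p of 0.115 for a difference of 1.25 ± 0.46. CORIN was at 2.42 and 2.52 CPM, under both WT libraries, with an adjusted p of 0.137 for a difference of -1.29 ± 0.50. Without WT day 6 replicate 2 CORIN passed (-1.93, adjusted p = 0.00756) and NPPB did not (0.75, adjusted p = 0.0545), and without ZEB2 shRNA day 6 replicate 1 or 2 no member passed. The receptors NPR1 (4.53 and 3.78 CPM), NPR2 (22.1 and 12.4 CPM) and NPR3 (3.77 and 4.45 CPM) did not pass.

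At day 10 NPPB was again above WT and NPPA and CORIN below it in NKX2-5 shRNA cells. NPPB was at 134.7 and 236 CPM against 53.4 and 24.2 CPM in WT, a rise of 2.25 ± 0.43 on the log2 scale (4.76-fold, adjusted p = 0.00548). NPPA was at 0.192 and 0.619 CPM against 7.52 and 3.70 CPM and fell by 3.78 (SE 0.67, 13.7-fold, adjusted p = 0.00421). CORIN fell by 4.22 (SE 0.88, 18.6-fold, adjusted p = 0.00807), with its libraries at 11.7 and 1.29 CPM, far apart from each other and both below WT. NPR1 was at 19.3 and 26.4 CPM and rose by 1.42 ± 0.35 (adjusted p = 0.0152), where at day 6 it had been below WT. NPR2 was at 27.6 and 26.2 CPM, above both WT libraries, with an adjusted p of 0.06. NPR3 was at 0.769 CPM in replicate 1 and at 9.47 CPM in replicate 2, and did not pass (adjusted p = 0.0723; without replicate 1 it did, 0.000513). Thus 4 of 6 members passed, and 43.9% of all genes did. The CORIN difference was -6.56 without NKX2-5 shRNA day 10 replicate 1, its call was lost without WT day 10 replicate 3 (adjusted p = 0.0597) and the NPR1 call without WT day 10 replicate 4 (adjusted p = 0.0672).

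In ZEB2 shRNA cells at day 10 CORIN was at 8.56 and 9.55 CPM, below both WT libraries by 3.75 ± 0.86 on the log2 scale (13.5-fold, adjusted p = 0.0253). NPR3 was the member that rose, at 8.16 and 16.5 CPM against 0.830 and 0.654 CPM (4.01 ± 1.09, 16.1-fold, adjusted p = 0.0432). NPPA was at 1.334 and 1.499 CPM, under both WT libraries by 2.00 ± 0.59, and missed the threshold (adjusted p = 0.0552). NPPB was at 65.4 and 47.8 CPM, which overlaps WT (adjusted p = 0.395). NPR1 (16.5 and 18.9 CPM) and NPR2 (28.3 and 24.9 CPM) were above both WT libraries, with adjusted p of 0.0786 and 0.111. Thus 2 of 6 members passed, and 18.2% of all genes did. Both calls were lost when any 1 of the 4 libraries of ZEB2 shRNA or WT cells was left out, with adjusted p from 0.0836 to 0.163 for CORIN and from 0.101 to 0.218 for NPR3.

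**Figure D2:**
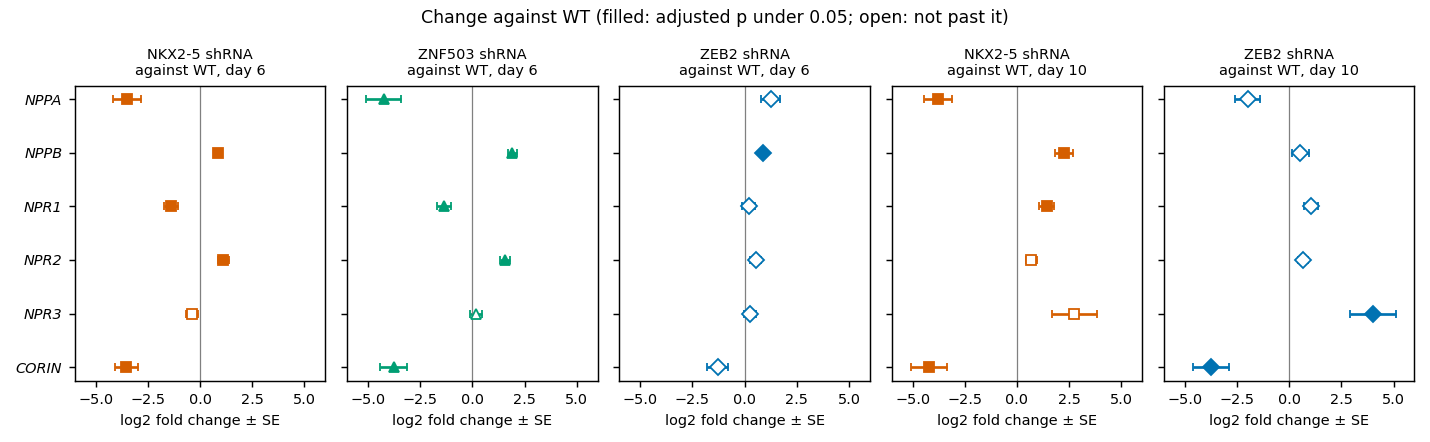
Log2 fold change against WT (x axis, points with SE bars) of 6 members in 5 comparisons of days 6 and 10, each from groups of 2 libraries; filled symbols have an adjusted p under 0.05. NPPA and CORIN lie between -4.25 and -3.51 in NKX2-5 and ZNF503 shRNA cells, and NPPB lies above 0 in all 5 panels.

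Before day 6 few members passed. At day 0 NPPB was at 3.07 and 6.46 CPM in ZEB2 shRNA cells and rose by 2.36 ± 0.46 on the log2 scale over WT (5.13-fold, adjusted p = 0.0144), and this was 1 of 5 members tested, with 3.93% of all genes. In ZNF503 shRNA cells NPPB had 4 and 0 counts (0.0896 and 0 CPM) and fell by 4.63 (SE 0.80, adjusted p = 0.00794). NPR1 was at 13.5 and 11.2 CPM in the same cells and rose by 0.79 ± 0.18 (adjusted p = 0.0248), and NPR2 rose by 0.77 ± 0.22 (6.05 and 7.40 CPM, adjusted p = 0.0498). These were 3 of 5 members, with 7.53% of all genes. For NKX2-5 shRNA cells at day 0 edgeR called 0 of 5 members (15.9% of all genes), 1 member had an unadjusted p under 0.05, and DESeq2 called 0. With 1 library left out the ZEB2 shRNA call was lost without ZEB2 shRNA replicate 2 or either WT library (adjusted p from 0.0807 to 0.152). The ZNF503 shRNA calls were 0 without ZNF503 shRNA replicate 2 or WT replicate 1, and 1 without either of the others; the NPPB difference without ZNF503 shRNA replicate 2 was -3.31 (adjusted p = 0.119).

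At day 2 NPR1 was lower in ZNF503 shRNA cells, at 5.79 and 6.19 CPM against 25.65 and 24.95 CPM in WT, a fall by 2.13 on the log2 scale (SE 0.20, 4.39-fold, adjusted p = 2.02e-06). This call held without each library in turn. In the same libraries the summed level of 4 mesendoderm markers (TBXT, MIXL1, EOMES and GSC) was 372 and 476 CPM against 780 and 825 in WT, and that of 6 hepatic and endoderm markers was 25.7 and 35.5 CPM against 109 and 118, and their part in the NPR1 result was not tested. NPR3 also fell in these cells (adjusted p = 0.0344), from 0.774 and 0 CPM in WT to 0.0445 and 0 CPM, but the sign turned without WT day 2 replicate 1 (log2 difference 3.61, adjusted p = 0.655), the WT library that held nearly all of its counts. These 2 of 4 members compare with 26.9% of all genes. CORIN was higher in NKX2-5 shRNA cells, at 0.527 and 0.705 CPM against 0.129 and 0 CPM (2.79 ± 0.80, adjusted p = 0.019), on at most 30 counts, and the call was lost without either NKX2-5 shRNA library or WT day 2 replicate 2 (adjusted p from 0.0528 to 0.121). That was 1 of 4 members, with 26.7% of all genes. In ZEB2 shRNA cells at day 2 edgeR called 0 of 4 members (0.49% of all genes), 1 had an unadjusted p under 0.05, and DESeq2 called 0. NPPA was at or below 0.0966 CPM in every library of day 2.

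The study's own thresholds combine a fold change with the false discovery rate. At day 0 (2-fold, 10% FDR) they were reached by 0 members in NKX2-5 shRNA cells, by NPPB in ZEB2 shRNA cells and by NPPB in ZNF503 shRNA cells, where 4.03%, 2.2% and 2.56% of all genes did. At day 2 (4-fold, 10% FDR) they were reached by CORIN in NKX2-5 shRNA cells (1.19% of all genes), by 0 members in ZEB2 shRNA cells (0.133%) and by NPR1, NPR3 and CORIN in ZNF503 shRNA cells (2.8%). In ZNF503 shRNA cells CORIN rested on 31 and 11 counts against 4 and 0 in WT (edgeR, adjusted p = 0.0683). Its log2 difference of 2.17 ran from 1.56 to 7.03 without 1 library, and the sign of NPR3 was not stable, as given above. At day 6 (8-fold, 1% FDR) NPPA and CORIN reached them in NKX2-5 shRNA cells (4.71% of all genes) and in ZNF503 shRNA cells (3.91%), and 0 members did in ZEB2 shRNA cells (0.462%). At day 10 with the same thresholds NPPA and CORIN reached them in NKX2-5 shRNA cells (7.31%) and 0 members in ZEB2 shRNA cells (1.46%). In WT cells 1, 4 and 3 members reached them at days 2, 6 and 10 against day 0, with 8.36%, 10.2% and 15.5% of all genes.

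The lines were also compared with each other. At day 6 NPPA was lower in NKX2-5 shRNA than in ZEB2 shRNA cells by 4.76 ± 0.63 on the log2 scale (27.1-fold, adjusted p = 6.11e-05), and CORIN by 2.24 ± 0.59 (adjusted p = 0.00816) and NPR1 by 1.58 ± 0.33 (adjusted p = 0.002) were lower too, while NPPB was at 49.0 CPM on average in both (adjusted p = 0.971). These were 3 of 6 members, with 44.4% of all genes. ZEB2 shRNA against ZNF503 shRNA cells gave 5 of 6 members (49.2% of all genes): NPPA, NPR1 and CORIN were higher in ZEB2 shRNA cells, and NPPB and NPR2 were higher in ZNF503 shRNA cells. For NPPA the ratio was 46.7, with a 95% counting interval of 12.7 to 389 since ZNF503 shRNA cells had 2 counts. Without ZEB2 shRNA day 6 replicate 2 the NPR2 call was lost (adjusted p = 0.0535), likewise without ZNF503 shRNA day 6 replicate 1 (0.0526), and that of CORIN without ZNF503 shRNA day 6 replicate 2 (0.0899). NKX2-5 and ZNF503 shRNA cells differed in NPPB, which was lower in NKX2-5 shRNA cells by 1.04 ± 0.19 (adjusted p = 0.00372), the 1 member of 6 (14.7% of all genes). That call was lost without ZNF503 shRNA day 6 replicate 1 (adjusted p = 0.0564).

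At day 10 NPPB was higher in NKX2-5 shRNA than in ZEB2 shRNA cells by 1.72 ± 0.42 on the log2 scale (3.28-fold, adjusted p = 0.0280), the 1 member of 6 that passed, with 21.3% of all genes. It was lost without either ZEB2 shRNA library (adjusted p = 0.128 and 0.2), when 0 members passed, and without NKX2-5 shRNA day 10 replicate 1 or 2 the count was 2 or 3. NPPA, at 0.192 and 0.619 CPM against 1.334 and 1.499 CPM, was lower without passing (adjusted p = 0.0897), and CORIN overlapped between the lines (adjusted p = 0.711).

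The change from day 6 to day 10 was itself compared with that in WT cells. With the NKX2-5 shRNA NPR1 went from 1.18 and 1.60 CPM to 19.3 and 26.4 CPM (log2 change 3.96 ± 0.32, adjusted p = 0.000156), and in WT cells from 2.65 and 4.61 CPM to 11.1 and 5.77 CPM (1.25 ± 0.32, adjusted p = 0.00732). The difference between these changes was 2.82 ± 0.51 (adjusted p = 0.00348), the 1 member of 6 that passed, with 25% of all genes. In ZEB2 shRNA cells NPPA was at 2.06 and 2.37 CPM at day 6 and at 1.334 and 1.499 CPM at day 10 (adjusted p = 0.173), where WT cells rose, and the difference between the changes was -3.29 ± 0.73 (adjusted p = 0.0292), again 1 member of 6, with 6.29% of all genes. NPPA was lost as a call in 7 of the 8 fits without 1 library, with adjusted p from 0.0725 to 0.12. NPR3 rose in ZEB2 shRNA cells from day 6 to day 10 by 1.58 ± 0.33 (adjusted p = 0.000883; 0.96 without ZEB2 shRNA day 10 replicate 4), where it had fallen in WT, and the difference of 3.74 ± 1.20 did not pass (adjusted p = 0.0951). For NPPB the difference in NKX2-5 shRNA cells was 1.38 ± 0.51 (adjusted p = 0.0699), and it passed without WT day 10 replicate 3 (2.04, adjusted p = 0.018) or NKX2-5 shRNA day 10 replicate 1 (1.71, adjusted p = 0.0151), after which 2 and 4 members passed in all.

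Across genes, levels were set side by side per kilobase of exon. Reads were counted per gene region, and whether intron reads were included is not given in the sources used here. CORIN spans 244108 bases with 4967 in exons, and NPPB 1482 with 708, so the order between such genes is uncertain. In WT cells at day 10 NPPB was at 54.8 CPM per kilobase, CORIN at 24.5, NPPA at 6.56, NPR2 at 3.92, NPR1 at 2.02, NPPC at 0.413 and NPR3 at 0.0995. NKX2-5 shRNA cells at day 10 had NPPB at 261.8 CPM per kilobase and CORIN at 1.31, and ZEB2 shRNA cells had NPPB at 79.9 and CORIN at 1.82. NPPB was the highest of the 7 in each group of days 6 and 10 on this scale, and at day 2 the highest was NPR1 in WT, NKX2-5 shRNA and ZEB2 shRNA cells (6.05, 5.46 and 7.42 CPM per kilobase) and NPR2, at 1.62, in ZNF503 shRNA cells, with NPR1 at 1.43 beside it. The 2 cyclase receptors changed places over time: NPR1 was above NPR2 per kilobase at day 2 in WT, NKX2-5 shRNA and ZEB2 shRNA cells and below it on average in every group of days 6 and 10, and in NKX2-5 shRNA cells at day 10 the libraries overlapped (4.61 and 6.31 for NPR1 against 6.51 and 6.18 for NPR2).

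**Figure D3:**
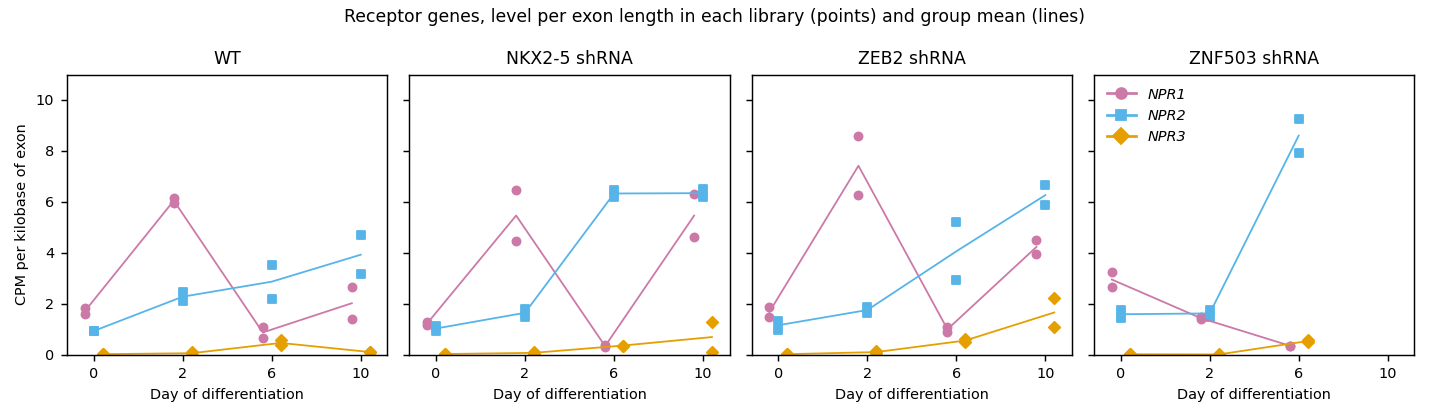
Level of the receptors NPR1, NPR2 and NPR3 per kilobase of exon (y axis, CPM per kilobase) in every library (points) with group means (lines), by day and line. Days are evenly spaced on the x axis. NPR1 is higher at day 2 than at days 0 and 6 in WT (6.13 and 5.96 at day 2), NKX2-5 and ZEB2 shRNA cells, and with the NKX2-5 shRNA its day 10 values (4.61 and 6.31) overlap those of day 2 (4.47 and 6.45), while NPR2 is highest in ZNF503 shRNA cells at day 6 with 9.27 and 7.94.

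Ordered by mean CPM over the 15 groups, the highest groups of each gene differed. Whether the libraries of groups overlap is a description here and not a test. NPPA was highest in WT cells at day 10, next in ZEB2 shRNA cells at days 6 and 10, and no 2 of these 3 groups overlapped. CORIN was highest in WT cells at day 10, and ZEB2 shRNA cells (9.06 CPM) and NKX2-5 shRNA cells (6.51 CPM) of day 10 and WT cells of day 6 (6.12 CPM) followed, each overlapping its neighbour. NPPB led in NKX2-5 shRNA cells at day 10 (185 CPM) and ZNF503 shRNA cells at day 6 (101 CPM), which stood apart from each other and from ZEB2 shRNA cells of day 10 (56.6 CPM). NPR2 led in ZNF503 shRNA cells at day 6 (36.5 CPM), apart from NKX2-5 shRNA cells of days 10 and 6 (26.9 CPM in each). NPR3 led in ZEB2 shRNA cells at day 10 (12.3 CPM), which overlapped NKX2-5 shRNA cells at day 10. NPR1 led in ZEB2 shRNA cells at day 2 (31.0 CPM), apart from WT cells of that day but overlapping NKX2-5 shRNA cells of days 2 and 10. In the edgeR test this NPR1 difference from WT did not pass (adjusted p = 0.731). Nor did that of NPPA between ZEB2 shRNA and WT cells at day 10 (adjusted p = 0.0552).

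Markers of CMs and of other cell types differed between the lines too. The summed level of 10 CM markers (TNNT2, MYH6, MYH7, MYL7, MYL4, MYL3, TNNC1, TNNI1, ACTN2 and RYR2) was 10810 to 13910 CPM in WT cells at day 6, 5917 to 6360 in ZEB2 shRNA, 318 to 399 in ZNF503 shRNA and 91.3 to 110 in NKX2-5 shRNA cells, with all 10 markers above 3 counts in each group. At day 10 the sums were 18180 to 21800, 4879 to 6966 and 149 to 535 CPM in WT, ZEB2 shRNA and NKX2-5 shRNA cells. Against WT all 10 fell in NKX2-5 shRNA cells at both days and in ZNF503 shRNA cells, and in ZEB2 shRNA cells 8 fell at day 6 and 5 at day 10. For this and the other marker lists, the share of all genes that passed was 49.1% and 43.9% in NKX2-5 shRNA cells at days 6 and 10. It was 55.7% in ZNF503 shRNA cells, and 11% and 18.2% in ZEB2 shRNA cells at days 6 and 10. The sum of 6 hepatic and endoderm markers (AFP, ALB, TTR, APOA2, SOX17 and FOXA2) was 324 to 657 CPM in WT cells at day 6 and 300 to 428 in ZEB2 shRNA cells, against 2354 to 2483 in ZNF503 and 3134 to 3226 in NKX2-5 shRNA cells. At day 10 it was 1485 to 3621 CPM in WT, 6456 to 7824 in ZEB2 shRNA and 27140 to 38810 in NKX2-5 shRNA cells. The sum of 5 blood markers (GATA1, KLF1, HBE1, HBZ and PF4) was 884 to 1087 CPM in NKX2-5 shRNA cells at day 10 against 11.7 to 40.6 in WT, and all 5 rose (median log2 change 5.20), while in ZEB2 shRNA cells it was 4.78 to 7.20 CPM and 2 fell. The 4 mesendoderm markers summed to 171 to 187 CPM in ZEB2 shRNA cells at day 6 against 12.5 to 13.5 in WT, with 1 of 4 passing. Fewer cells of a type and less RNA per cell cannot be told apart in these bulk samples, and the part of the cell types in the changes of the 7 genes was not tested.

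Set against the CM marker sum over the 14 libraries of days 6 and 10, NPPA was at most 0.619 CPM in the NKX2-5 and ZNF503 shRNA libraries, where the sum was lowest, and at least 0.608 CPM in the others. CORIN did not follow the sum throughout, since NKX2-5 shRNA day 10 replicate 1 held 11.7 CPM at a sum of 149 CPM, more than either WT library of day 6. ZEB2 shRNA cells at day 6 had more NPPA than WT cells of that day with a lower marker sum. In NKX2-5 shRNA cells at day 10 the library with the higher marker sum, replicate 2, had the higher NPPA (0.619 against 0.192 CPM) and the lower CORIN (1.29 against 11.7 CPM). Endocardial and endothelial markers (PECAM1, CDH5, KDR, TEK, EMCN, NFATC1 and TIE1), a list of cells that hold NPR3 in the developing heart, were at 377 to 458 CPM in WT and 404 to 470 in ZEB2 shRNA cells at day 10, with 4 of 7 higher and 0 lower in ZEB2 shRNA cells. In NKX2-5 shRNA cells they were at 191 to 318 CPM at day 10, with 5 higher and 1 lower. Of all genes, 18.2% passed in ZEB2 shRNA and 43.9% in NKX2-5 shRNA cells at that day. The part of these markers in the NPR3 result was not tested.

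**Figure D4:**
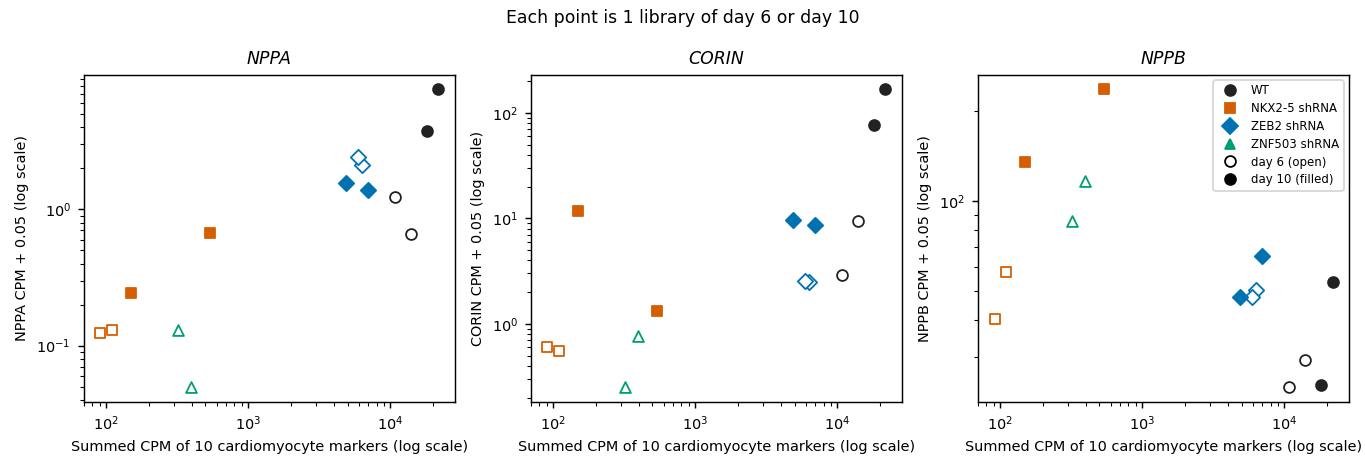
NPPA, CORIN and NPPB (y axes, CPM + 0.05, log scale) against the summed CPM of 10 CM markers (x axis, log scale), 1 point per library, with day 6 open and day 10 filled and the lines by colour and shape. The NKX2-5 and ZNF503 shRNA libraries, with sums of 91.3 to 535 CPM, hold at most 0.619 CPM of NPPA, and the 4 highest NPPB values, 85.9 to 236 CPM, are among them.

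Enzymes that process or degrade the peptides moved in both directions. Of 5 such genes (FURIN, PCSK6, MME, IDE and DPP4) 3 rose and 2 fell in NKX2-5 shRNA and in ZNF503 shRNA cells at day 6, 2 rose and 1 fell in ZEB2 shRNA cells, and at day 10 it was 3 and 1 in NKX2-5 shRNA and 1 and 1 in ZEB2 shRNA cells. All genes passed at 49.1%, 55.7%, 11%, 43.9% and 18.2% in these comparisons. The median log2 change of the list ran from 0.48 to 1.74 over these 5 comparisons, where that of all genes tested was between -0.03 and 0.03. PCSK6, a convertase that activates corin, rose in NKX2-5 shRNA cells at day 6 by 2.61 ± 0.19 (22.0 against 3.56 CPM, adjusted p = 3.28e-07). FURIN, a convertase that cuts pro-BNP, rose in NKX2-5 shRNA cells at day 10 by 1.74 ± 0.39 (adjusted p = 0.0102), which was 1.00 without NKX2-5 shRNA replicate 1 and was lost without WT replicate 3 or 4 (adjusted p = 0.0891 and 0.0531). DPP4, a peptidase that trims BNP, rose there by 3.33 ± 0.56 (366.5 against 36.4 CPM, adjusted p = 0.00351). MME, or neprilysin, which degrades the peptides, fell in ZNF503 shRNA cells at day 6 by 2.98 (4.28 against 33.4 CPM, SE 0.17, adjusted p = 5.47e-08). In NKX2-5 shRNA cells at day 6 MME was lower too (log2 change -1.745). In ZEB2 shRNA cells it went the other way, with a log2 change of 1.10 at day 6 (71.5 against 33.4 CPM) and 2.68 at day 10 (39.3 against 6.12 CPM).

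The other guanylyl cyclases are the nitric oxide receptor subunits GUCY1A1, GUCY1A2 and GUCY1B1 and the membrane forms GUCY2C, GUCY2D and GUCY2F. Of these 6, 5 were tested, and 3 fell and 0 rose in each shRNA line at day 6 (median log2 change -1.58 in NKX2-5, -1.93 in ZNF503 and -0.92 in ZEB2 shRNA cells), where 49.1%, 55.7% and 11% of all genes passed. In ZEB2 shRNA cells the calls of GUCY1A2 and GUCY1B1 were each lost in 3 of the 4 fits without 1 library (adjusted p up to 0.113 and 0.257). At day 10 it was 1 higher and 1 lower in NKX2-5 shRNA cells (median 0.62) (43.9% of all genes) and 0 in ZEB2 shRNA cells (median 0.00), where 18.2% did. The lower one, GUCY1A1, was lost without either WT library (adjusted p = 0.066 and 0.0579). GUCY1A1 fell in ZNF503 shRNA cells at day 6 by 4.80 (7.53 against 209.4 CPM, SE 0.14, adjusted p = 4.73e-10), GUCY1B1 fell in NKX2-5 shRNA cells at day 6 by 4.42 (SE 0.32, adjusted p = 3.25e-07), and GUCY1A2 fell in ZNF503 shRNA cells at day 6 by 1.93 (SE 0.23, adjusted p = 2.74e-05). GUCY2C, the receptor for guanylin, rose in NKX2-5 shRNA cells at day 10 by 4.21 ± 0.59 (5.34 against 0.293 CPM, adjusted p = 0.0017).

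Downstream of cyclic GMP, 11 of 13 kinase, phosphodiesterase and channel genes were tested. In NKX2-5 shRNA cells 2 rose and 2 fell at day 6, and 5 rose and 2 fell at day 10 (median log2 change 0.29 and 1.10), with 49.1% and 43.9% of all genes passing, so that the share at day 6 was under that of all genes. In ZNF503 shRNA cells 4 rose and 2 fell (0.15, all genes 55.7%), and in ZEB2 shRNA cells 1 rose and 2 fell at day 6 (0.19, 11%) and 2 rose and 0 fell at day 10 (0.69, 18.2%). PDE5A, which breaks down cyclic GMP, was at 699.7 CPM on average in NKX2-5 shRNA cells at day 10 against 44.6 in WT (3.98 ± 0.52, adjusted p = 0.00134). Its NKX2-5 shRNA libraries ranged from 351.9 to 1048 CPM, and the log2 change from 2.98 to 4.56 without 1 library. PDE11A, which takes both cyclic nucleotides, rose in the same cells at day 10 by 4.05 ± 0.77 (54.1 and 10.4 CPM against at most 2.13 in WT, adjusted p = 0.00551). The change was 2.41 without NKX2-5 shRNA replicate 1, the higher library, and the call was lost without WT replicate 3 or 4. PRKG1, the cyclic GMP-dependent kinase, fell in NKX2-5 shRNA cells at day 6 by 3.21 (7.65 against 69.7 CPM, SE 0.22, adjusted p = 2.06e-07). PDE3A, a cyclic AMP phosphodiesterase that cyclic GMP inhibits, fell in ZNF503 shRNA cells at day 6 by 4.49 (8.61 against 192 CPM, SE 0.13, adjusted p = 4.73e-10).

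Of 14 regulators of NPPA and NPPB (NKX2-5, GATA4, GATA6, TBX5, TBX20, MEF2C, HAND2, SRF, MYOCD, TBX2, TBX3, IRX4, HEY2 and ANKRD1), 10 fell and 3 rose in NKX2-5 shRNA cells at day 6 and 9 fell and 1 rose at day 10, with NKX2-5 itself the shRNA's target. In ZNF503 shRNA cells 9 fell and 3 rose, and in ZEB2 shRNA cells 4 fell and 1 rose at day 6 and 5 fell and 1 rose at day 10. The shares of all genes that passed were 49.1%, 43.9%, 55.7%, 11% and 18.2%. The median log2 changes were -3.14, -2.93, -2.06, -0.31 and -1.34 in this order. The list was not split into activators and repressors, so these counts do not measure activation of NPPA or NPPB. The genes named next had the largest changes, and all of them fell. MYOCD, a coactivator of SRF, was at 5.02 CPM in NKX2-5 shRNA cells at day 6 against 476 in WT (-6.58 ± 0.21, adjusted p = 5.98e-10). TBX5 was at 0.191 against 16.6 CPM (-6.49 ± 0.45, adjusted p = 2.3e-07), and NKX2-5 at 0.878 against 67.3 CPM (-6.30 ± 0.30, adjusted p = 9.6e-09). HAND2 fell in ZNF503 shRNA cells at day 6 by 5.85 (SE 0.24, adjusted p = 4.29e-09).

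The neighbours of NPPA and NPPB on chromosome 1 were counted too. Of 6 neighbouring genes, 2 rose and 0 fell in NKX2-5 shRNA cells at day 6 and at day 10, 5 rose and 0 fell in ZNF503 shRNA cells, and 0 passed in ZEB2 shRNA cells at either day. Of all genes 49.1% and 43.9% passed in NKX2-5 shRNA cells at these days and 55.7% in ZNF503 shRNA cells, so that the 2 of 6 lay under the share of all genes. CLCN6, which overlaps NPPA, was at 35.8 CPM in NKX2-5 shRNA cells at day 6 and at 43.99 in ZNF503 shRNA cells, against 25.8 in WT (0.46 ± 0.15 and 0.76 ± 0.16 on the log2 scale, adjusted p = 0.0263 and 0.00148). NPPA-AS1 was at 4.49 CPM in WT at day 6, above NPPA itself, and at 7.51 in ZNF503 shRNA cells (0.72 ± 0.23, adjusted p = 0.0202).

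Over the 30 libraries, Pearson's r of log2(CPM + 1) was 0.876 between NPPA and CORIN, 0.853 between NPPB and NPR2, 0.785 between NPPB and NPR3 and 0.533 between NPPA and NPPB, and NPR1 had an r between -0.39 and 0.02 with the other 6. These are descriptions over libraries that share lines, days and depth. Among 17035 genes with a group mean of at least 1 CPM, the 5 with the highest r to NPPB were APOA1 (0.981), APOB (0.970), CST3 (0.969), EDN1 (0.967) and TTR (0.966). With a pseudocount of 0.1 in place of 1, only APOA1 of these was among the 5 again. Those of CORIN were RRAD (0.960), C10orf71 (0.958), SYTL3, ADPRHL1 and FBH1 (0.946), and the 4 highest of NPPA were PRR16 (0.959), PCARE, HOXB-AS1 and DNAJC5G (0.938). NPR2 was most like CACNB3 (0.966), AGPAT3, COL4A6, POFUT2 and AHNAK, NPR3 most like HTR1E (0.945), SOX7, TCIM, ANGPTL2 and NR2F2, and NPR1 most like VSIG10L (0.877), PRKCB, ISLR, GTPBP2 and CCDC88B. With the pseudocount of 0.1, only PCARE recurred for NPPA, RRAD and FBH1 for CORIN, and HTR1E and TCIM for NPR3. The genes named for NPR1 all recurred, as did those for NPR2 except AHNAK. For NPPC the highest r was 0.749 (TOM1L1, followed by PIERCE1, OTUB1, QRSL1 and MIPEPP3), on levels below 1 CPM.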

How the data were processed

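Total RNA of H1 cells was sequenced with a stranded kit. The deposited values are raw read counts per RefSeq transcript, made by the authors by mapping paired-end reads to hg19 (GRCh37) with TopHat2 2.0.14 (Bowtie2 2.2.1.0, SAMtools 0.1.19.0) and counting reads per gene region with RSeQC, without normalization. RefSeq symbols matched 40285 of 41627 transcripts (96.8%, with 97.1% of counts), and for each symbol the row with the largest total was kept. The 4 columns left out hold 42704 rows, and their median rank correlation with replicate 3 over blocks of rows was 0.00792 to 0.0131, against 0.984 and 0.993 for replicate 4.

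Counts were tested with edgeR 4.0.16 (R 4.3.3): TMM factors, filterByExpr, and the quasi-likelihood fit and test (glmQLFit, glmQLFTest), with p-values adjusted by Benjamini-Hochberg over every gene in the fit and a call at an adjusted p under 0.05. A fit held all groups of a day, or, for the time courses, all groups of a line; the groups of days 6 and 10 served for differences between such changes, so that comparisons with WT share its libraries. The SE was derived from the log2 fold change and its F statistic. CPM uses TMM over the 30 libraries, and exon lengths are those of GENCODE transcripts on GRCh37. Alternatives were DESeq2 1.42.0, other normalizations, no filter, summed rows, 1 fit of all groups, a replicate block, libraries left out and the study's thresholds. The scripts were tested on simulated data. The 7 genes and the lists were chosen with earlier results of these data known. From the lists, at most the 4 genes with the largest change at day 6 or 10 are named, if past the test and at least 2-fold; CLCN6 and NPPA-AS1 were named for their place. Libraries are biological replicates by the series' design text, and replicates differed by more than sampling noise (chi-square per gene 5.16 to 102). Intervals and limits cover counting error only. The depth of 9189943 to 90814577 counts sets the limit of 3 counts at 0.033 to 0.326 CPM.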

Additional observations from a re-analysis of the deposited data

Results flagged for a closer look

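NPR1 changed differently from day 6 to day 10 in NKX2-5 shRNA and in WT cells. The interaction term was 2.82 ± 0.51 on the log2 scale (edgeR quasi-likelihood test, adjusted p = 0.00348), with NPR1 higher at day 10 than at day 6 in every library of both lines. NPPA changed differently over the same interval in ZEB2 shRNA and in WT cells, by -3.29 ± 0.73 (adjusted p = 0.0292). NPPA was higher at day 10 than at day 6 in both WT libraries and lower in both ZEB2 shRNA libraries. Without 1 library its difference ran from -3.85 to -2.62 and, as given above, was lost as a call in most of these fits. The change of NPPA within ZEB2 shRNA cells did not pass by itself. Causes were not tested.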

How the results depend on the processing

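Of the alternatives, DESeq2-type size factors left the count of members past 5% FDR within 1.5 times of the reported count in each comparison. DESeq2 gave 4 rather than 2 members in ZEB2 shRNA cells at day 10, and 3 and 2 rather than 1 for the change from day 6 to day 10 in NKX2-5 and ZEB2 shRNA cells. With library totals only it was 2 rather than 1 in NKX2-5 shRNA cells at day 2, with no filter 3 rather than 1 in ZEB2 shRNA cells at day 6, and with summed rows 1 rather than 2 in ZNF503 shRNA cells at day 2. With 1 fit of all groups it was 1 in ZNF503 shRNA cells at day 0 and at day 2, 0 in NKX2-5 shRNA cells at day 2, 0 in ZEB2 shRNA cells at day 6, 0 for NKX2-5 against ZNF503 shRNA at day 6, 5 in ZEB2 shRNA cells at day 10, 2 for NKX2-5 against ZEB2 shRNA at day 10, and 2 for each change from day 6 to day 10. With the study's thresholds it was 1 in ZNF503 shRNA cells at day 0, 2 in NKX2-5 and in ZNF503 shRNA cells and 0 in ZEB2 shRNA cells at day 6, 2 in NKX2-5 and 0 in ZEB2 shRNA cells at day 10, and 1 and 3 in WT at days 2 and 10. Without 1 library the counts ran from 0 to 1 for ZEB2 shRNA at days 0 and 6, NKX2-5 shRNA at day 2, NKX2-5 against ZNF503 shRNA at day 6 and the change in ZEB2 shRNA cells. They ran from 0 to 1 for ZNF503 shRNA at day 0, 1 to 2 at day 2, 0 to 0 for ZEB2 shRNA at day 10, 0 to 3 for NKX2-5 against ZEB2 shRNA at day 10, 2 to 5 for WT from day 6 to day 10, and 1 to 4 for the change in NKX2-5 shRNA cells. The NPR3 difference in ZNF503 shRNA cells at day 2 ran from -6.95 to 3.61 without 1 library, with the sign turned without WT day 2 replicate 1. Causes were not tested, beyond the fewer libraries of the last. Levels in CPM depended on the rows used. With summed rows 73 of 98 group levels moved by more than the SD of their group, with changes from -53.35% to 60.06% over the 98. With library totals only 7 of 98 did, with changes from -7.7% to 10.69%.

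Replicate numbers are shared between groups without a label for a shared batch, and same-numbered libraries did not deviate together in every pair (r from -0.302 to 0.447). As a replicate block the number gave 4 rather than 2 members in ZEB2 shRNA cells at day 10, and in the other comparisons that could be fitted the count stayed within 1.5 times. Groups of 2 libraries, and NPPA and NPPC at a few counts, limit what can be called.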
